A study of Mus musculus with 8 samples.

Results

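Chemokines that activated T cells secrete, and the receptor of one of them, were followed in cells sorted as CD8+ from melanomas of mice given the calcineurin inhibitor tacrolimus or vehicle. The 6 genes were taken by name from 55487 genes: the ligands Xcl1, Ccl1, Ccl3, Ccl4 and Ccl5, and Xcr1, the receptor of XCL1. Each of the 6 symbols matched a single Ensembl identifier. In the tacrolimus group, 4 C57BL/6 mice carrying B16F10 melanoma (a transplantable, pigment-forming mouse line) under the skin received tacrolimus (FK506) intraperitoneally at 3 mg/kg every 5 days. In the vehicle group, 4 mice of the same strain with the same tumor received vehicle intraperitoneally every 5 days. In both groups dosing started 7 to 9 days after the tumor injection, when tumors measured about 50 mm3. The infiltrating CD8+ lymphocytes were isolated by flow sorting from tumors digested 6 days after the first dose, and 1 RNA library per mouse was sequenced. The labels give neither the sex nor the age of the mice, nor the markers of the sort beyond CD8.

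Chemokines are small secreted proteins that direct leukocyte migration through G protein-coupled receptors. XCL1 (lymphotactin) is made by activated CD8+ T cells and natural killer cells, and its receptor XCR1 marks the dendritic cells that cross-present antigen to CD8+ T cells. CCL3 and CCL4 (the macrophage inflammatory proteins 1-alpha and 1-beta) and CCL5 (RANTES) attract T cells and myeloid cells, and CCL3 and CCL5 signal through CCR1. CCL3 and CCL4 are made by macrophages as well as by T cells. CCL1 (TCA-3) signals through CCR8. Tacrolimus blocks calcineurin, which activates NFAT transcription factors, and NFAT takes part in the induction of many cytokine genes after T cell receptor engagement.

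The 4 CC chemokine genes lie on chromosome 11 of GRCm38, and Ccl3 (83647844 to 83649355, minus strand) and Ccl4 (83662584 to 83664683, plus strand) are close neighbours there. Ccl5 spans 83525778 to 83530518 and Ccl1 spans 82176657 to 82305690, both on the minus strand. The Ccl1 span covers 129034 bases, and the start used for its sequence below lies inside it, not at its outer end. Xcl1 lies on chromosome 1 (164931644 to 164935527) and Xcr1 on chromosome 9 (123852315 to 123862029), both on the minus strand. All are annotated as protein coding. Because NFAT is the target of calcineurin, the 250 bases before the RefSeq start (GRCm38.p6) of the 3 ligand genes matched in the promoter table are shown 5′ to 3′, with each GGAAA, the core of NFAT sites, and its complement TTTCC in capitals.
Xcl1, chr1:164935523-164935772, minus strand: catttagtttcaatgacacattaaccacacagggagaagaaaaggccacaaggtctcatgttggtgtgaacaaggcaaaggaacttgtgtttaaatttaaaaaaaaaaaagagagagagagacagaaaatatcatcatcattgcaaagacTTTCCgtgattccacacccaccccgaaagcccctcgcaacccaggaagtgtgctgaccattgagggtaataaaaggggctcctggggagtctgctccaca
Ccl3, chr11:83649379-83649628, minus strand: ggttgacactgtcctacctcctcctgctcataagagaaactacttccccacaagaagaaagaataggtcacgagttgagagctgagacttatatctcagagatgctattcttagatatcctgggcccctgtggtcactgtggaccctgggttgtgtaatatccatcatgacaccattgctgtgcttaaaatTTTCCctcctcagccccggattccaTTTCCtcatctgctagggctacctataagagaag
Ccl1, chr11:82179813-82180062, minus strand: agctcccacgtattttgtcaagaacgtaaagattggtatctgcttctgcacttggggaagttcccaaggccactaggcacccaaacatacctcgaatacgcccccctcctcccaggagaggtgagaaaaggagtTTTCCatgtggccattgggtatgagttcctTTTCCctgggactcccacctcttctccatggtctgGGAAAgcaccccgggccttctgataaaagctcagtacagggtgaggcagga
The Xcl1 window held 1 match, which began 100 bases before the start, and the Ccl3 window held 2, which began 59 and 34 bases before it. The Ccl1 window held 3, at 116, 86 and 51 bases. Of 32851 windows of this length, 55.6% held at least 1 match on either strand, 21.4% at least 2 and 6.39% at least 3. The AP-1 motif TGANTCA was in none of these 3 windows and in 6.75% of all windows. The NF-kB consensus matched the Ccl1 window at 2 overlapping positions, 196 and 195 bases before the start, and 7.25% of all windows held it. These matches are a description of the sequence, and binding was not measured.

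Levels are given in FPKM, that is, fragments relative to transcript length in kilobases and to the size of the library, which can be compared between genes. No header names the unit, which was inferred from the values. Read in this unit, the low values of the files corresponded to an estimated 15850000 to 19200000 fragments per library. Melanoma transcripts were abundant in every library: the melanosome gene Pmel was at 4273 to 5754 FPKM in tacrolimus libraries and 4223 to 7772 FPKM in vehicle libraries. The 14 T cell markers summed to between 64.0 and 467 FPKM in tacrolimus libraries, against 470 to 1914 FPKM in vehicle libraries. The 12 macrophage and monocyte markers summed to between 339 and 692 FPKM in tacrolimus libraries and to between 601 and 1888 FPKM in vehicle libraries. Vehicle replicate 1 had the highest sum of both lists. Tacrolimus replicate 2 had the lowest. In bulk RNA of this kind, fewer cells of a type and less RNA per cell cannot be told apart.

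All 5 ligands had a lower mean in the tacrolimus libraries, and Xcl1 and Ccl4 did not overlap between the groups. Xcl1 was at 10.43, 5.66, 12.34 and 5.45 FPKM in tacrolimus replicates 1 to 4. In vehicle replicates 1 to 4 it was at 74.0, 27.58, 21.92 and 39.25 FPKM. Every tacrolimus library was below every vehicle library, and the nearest pair was tacrolimus replicate 3 and vehicle replicate 3. The mean was 8.47 ± 3.46 FPKM with tacrolimus and 40.7 ± 23.4 FPKM with vehicle (SD, n = 4 each). On the log2(FPKM + 1) scale, which understates changes of low genes, the difference was -2.06 (SE 0.38, 95% interval -2.89 to -1.22). It did not pass limma's test with Benjamini-Hochberg adjustment over 13032 genes (adjusted p = 0.178, unadjusted p = 0.00026), although it had the 19th smallest p of all genes. None of the genes tested passed an adjusted p of 0.05, a background of 0%. At an unadjusted p under 0.05 there were 208 higher (1.6%) and 2056 lower genes. With 1 library per mouse, these p-values set each difference against the spread between mice. Limma moderates that spread toward a trend over all genes. The Xcl1 values correspond to an estimated 22.7 to 67.1 fragments in tacrolimus libraries and 95.1 to 348 fragments in vehicle libraries, so counting error is part of the spread.

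**Figure D1:**
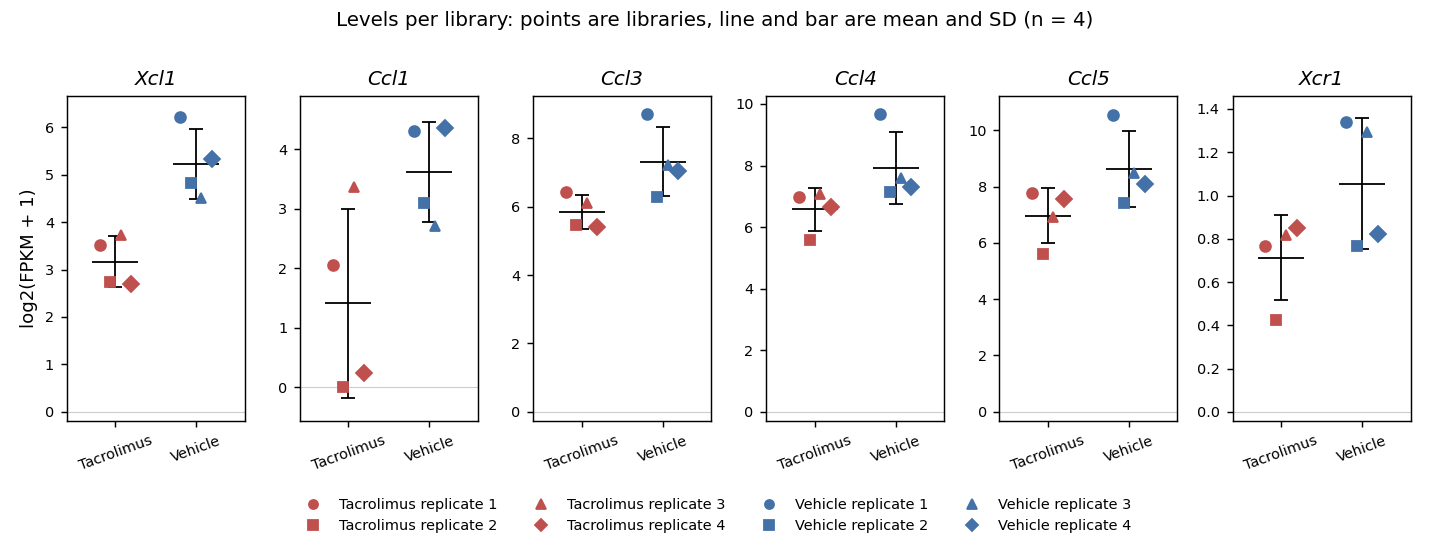
Level of each gene as log2(FPKM + 1) in the 4 tacrolimus libraries (red) and the 4 vehicle libraries (blue), each panel with its own axis; points are libraries, and the line and bar are the mean and SD of the log2 values. Xcl1 and, by a narrow margin that both scalings removed, Ccl4 show no overlap between the groups, and vehicle replicate 1 is the highest library for Xcl1, Ccl3, Ccl4, Ccl5 and Xcr1.

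Ccl1 was the lowest of the 5 ligands and the one most uneven within the tacrolimus group. Within the vehicle group its highest library was 3.54 times its lowest, less than for Ccl3, Ccl4 or Ccl5. It was at 3.14 FPKM in tacrolimus replicate 1, listed at 0 in replicate 2, and at 9.31 and 0.18 FPKM in replicates 3 and 4. In vehicle replicates 1 to 4 it was at 18.84, 7.59, 5.54 and 19.59 FPKM. The groups overlapped, because tacrolimus replicate 3 was above vehicle replicates 2 and 3, while the other 3 tacrolimus libraries were below every vehicle library. With the shortest of its 3 annotated transcripts, the value of 0.18 FPKM corresponds to an estimated 0.7 fragments, and with the longest to 5.3. The log2 difference was -2.21 (SE 0.71, limma adjusted p = 0.202), and with 1 library left out at a time it ran from -2.86 without tacrolimus replicate 3 to -1.74 without tacrolimus replicate 2. A pseudocount of 0.1 in place of 1 gave -3.55, since 2 of the tacrolimus values are near 0.

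Ccl3, Ccl4 and Ccl5 were far more abundant. Ccl3 was at 84.94, 42.75, 68.34 and 41.58 FPKM in tacrolimus replicates 1 to 4, and at 419.1, 77.28, 147.49 and 130.15 FPKM in vehicle replicates 1 to 4. Only tacrolimus replicate 1 reached above the lowest vehicle library, replicate 2. The log2 difference of Ccl3 was -1.46 (SE 0.45, limma adjusted p = 0.195). Ccl4 was at 126.35, 46.67, 135.23 and 100.39 FPKM with tacrolimus. With vehicle it was at 810.73, 141.58, 190.64 and 157.74 FPKM. The groups were separate by a narrow margin, between tacrolimus replicate 3 and vehicle replicate 2, and they overlapped after median-of-ratios or upper-quartile scaling, where Xcl1 still did not. The log2 difference of Ccl4 was -1.35 (SE 0.54, limma adjusted p = 0.252).

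Ccl5, which encodes a chemokine stored and released by effector and memory CD8+ T cells, was the most abundant member in 7 of 8 libraries. It was at 219.02, 47.24, 120.28 and 186.38 FPKM in tacrolimus replicates 1 to 4. In vehicle replicates 1 to 4 it was at 1490.97, 168.33, 355.76 and 269.86 FPKM. Tacrolimus replicates 1 and 4 were above vehicle replicate 2, so the groups overlapped. The log2 difference was -1.67 (SE 0.65, limma adjusted p = 0.246). By rank among all genes of a library, Ccl5 stood between place 475 and place 2209 in tacrolimus libraries and between place 65 and place 863 in vehicle libraries.

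Vehicle replicate 1 carried much of the vehicle mean of Ccl3, Ccl4 and Ccl5. With all libraries, Ccl5 averaged 143 ± 76.0 FPKM with tacrolimus and 571 ± 618 FPKM with vehicle (SD, n = 4 each), and without that library the vehicle mean was 265 FPKM. Ccl3 averaged 59.4 ± 21.03 FPKM with tacrolimus and 194 ± 153 FPKM with vehicle, or 118 FPKM without it. Ccl4 averaged 102 ± 39.8 FPKM with tacrolimus and 325 ± 324 FPKM with vehicle, or 163 FPKM without it. For Xcl1 the vehicle mean without it was 29.6 FPKM, so the ratio of the vehicle to the tacrolimus mean was 3.49 in place of 4.80, whereas for Ccl5 it was 1.85 in place of 3.99. The log2 differences without vehicle replicate 1 were -1.73 for Xcl1, -1.98 for Ccl1, -1.0 for Ccl3, -0.77 for Ccl4 and -1.03 for Ccl5. Each kept its sign and none passed the adjustment (limma adjusted p of 0.192 to 0.237).

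Of the 6 genes, 5 passed the filter on low values, which asked for at least 1 FPKM in 4 or more of the libraries. These 5 were all lower at an unadjusted p under 0.05, beside 15.8% of all genes tested. So were all 14 T cell markers, with a median difference of -1.83, where that of the 5 ligands was -1.67. The 2 ligands without overlap stand beside 10.2% of all genes that were lower without overlap, and beside 8 of the 14 T cell markers. A lower mean by itself was common, since 75.7% of all genes tested had a difference below 0 in the values as deposited, with a median of -0.19. By the size of the difference, Ccl1 was 10th and Xcl1 15th from the lowest of 13032 genes, Ccl5 was 90th, Ccl3 168th and Ccl4 244th. Median-of-ratios scaling moved the median gene to 0.01, and the genes with an unadjusted p under 0.05 were then 743 higher and 725 lower ones. On that scaling the log2 differences were -1.84 for Xcl1, -2.01 for Ccl1, -1.24 for Ccl3, -1.12 for Ccl4 and -1.44 for Ccl5. Ccl4 and Ccl5 then had an unadjusted p of 0.10 and 0.081.

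Xcr1 is the receptor through which XCL1 reaches cross-presenting dendritic cells. It was near the limit of the filter and was not tested. It was at 0.70, 0.34, 0.76 and 0.80 FPKM in tacrolimus replicates 1 to 4, and at 1.53, 0.70, 1.45 and 0.77 FPKM in vehicle replicates 1 to 4. The groups overlapped, with vehicle replicates 1 and 3 above the other 6 libraries. Its transcript is long, so these levels correspond to an estimated 23.1 to 61.5 fragments in tacrolimus libraries and 47.3 to 107 fragments in vehicle libraries. Among other markers of these dendritic cells, Clec9a, a receptor for dead cells, was at 0.18 to 0.33 FPKM in tacrolimus libraries and at 0 to 1.13 FPKM in vehicle libraries. Irf8, a transcription factor of dendritic cells that macrophages also express, was at 6.30 ± 2.0 FPKM with tacrolimus and 16.7 ± 7.03 FPKM with vehicle, without overlap (limma unadjusted p = 0.00174, and not past the adjustment). Of the 10 markers of this cell type, 6 were tested, 5 had a lower mean, 2 were lower at an unadjusted p under 0.05 and the median difference was -0.35. Over all genes, 75.7% had a lower mean and 15.8% were lower at that p, so the count of lower means is near the background. Besides Irf8, the differences were -0.80 for Naaa, -0.42 for Batf3, -0.27 for Tlr3, -0.16 for Cadm1 and 0.41 for Itgae, all with overlap. Cadm1, at 61.11 to 122.92 FPKM over all libraries, and Itgae, at 12.48 to 28.32 FPKM, were far above Xcr1. Whether these transcripts came from dendritic cells was not tested. Per FPKM of Xcr1, Xcl1 was at 6.81 to 16.6 FPKM in tacrolimus libraries and 15.1 to 51.0 FPKM in vehicle libraries.

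Receptors of the CC ligands were also measured. Ccr8, the receptor of CCL1, was at 0.53, 0.34, 1.44 and 1.03 FPKM in tacrolimus replicates 1 to 4, and at 13.87, 4.41, 4.03 and 6.43 FPKM in vehicle replicates 1 to 4, without overlap. Its log2 difference was -2.05, which did not pass the adjustment (limma adjusted p = 0.147). Ccr1, which macrophages and neutrophils also express, was at 2.20 to 2.95 FPKM with tacrolimus and 2.57 to 21.8 FPKM with vehicle, with overlap. Ccr3, an eosinophil receptor, and Ackr2, a scavenger of CC chemokines, stayed under 1 FPKM in every library.

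A chosen list of 32 other chemokine ligands of the mouse, which is not complete, gave the setting for the members. Of the 19 tested, 16 had a lower mean, 7 were lower and 0 higher at an unadjusted p under 0.05, none passed the adjustment, and the median log2 difference was -0.95. Over all genes, 75.7% had a lower mean, 15.8% were lower and 1.6% higher at that unadjusted p, and the median was -0.19. In none of the 19 were the groups separate, beside 10.2% of all genes that were lower without overlap. The 2 with the smallest unadjusted p among the lower ones were Cxcl10, an interferon-induced ligand of CXCR3, at -0.58 (unadjusted p = 0.011), and Ccl6, a myeloid ligand, at -1.55 (unadjusted p = 0.017). The 5 members made up 27.4% to 46.0% of the summed FPKM of the 37 listed chemokine ligands in tacrolimus libraries and 32.5% to 56.4% in vehicle libraries, so this share overlapped.

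Among themselves the 5 ligands kept nearly 1 order: Ccl5, Ccl4, Ccl3, Xcl1, Ccl1. The exception was tacrolimus replicate 3, in which Ccl4 was above Ccl5. Ccl5 and Ccl4 were close neighbours, at a ratio of Ccl5 to Ccl4 of 1.37 ± 0.49 with tacrolimus and 1.65 ± 0.32 with vehicle, and in tacrolimus replicates 2 and 3 the ratio was 1.01 and 0.89. The ratio of Ccl4 to Ccl3 was 1.74 ± 0.58 with tacrolimus and 1.57 ± 0.37 with vehicle (SD, n = 4 each), a difference smaller than the spread within either group. Xcl1 made up 1.63% to 3.98% of the summed FPKM of the 5 ligands in tacrolimus libraries and 2.63% to 6.53% in vehicle libraries. Within the tacrolimus group, the highest library was 2.26 times the lowest for Xcl1, 2.04 times for Ccl3, 2.90 times for Ccl4 and 4.64 times for Ccl5, and 7.05 times for Cd3e. Within the vehicle group the order was another one, at 3.38 times for Xcl1, 5.42 times for Ccl3, 5.73 times for Ccl4, 8.86 times for Ccl5 and 3.57 times for Cd3e.

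Cd3e, whose product is part of the CD3 complex that signals for the T cell receptor, served as the measure of T cell RNA in a library. It was at 46.05, 6.53, 18.16 and 19.12 FPKM in tacrolimus replicates 1 to 4, and at 145.94, 40.84, 61.64 and 74.67 FPKM in vehicle replicates 1 to 4. Only tacrolimus replicate 1 overlapped the vehicle group, just above vehicle replicate 2. The log2 difference of Cd3e was -1.93 (SE 0.52, limma adjusted p = 0.193). The size was thus within the span of the 5 ligands, from -1.35 to -2.21.

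**Figure D2:**
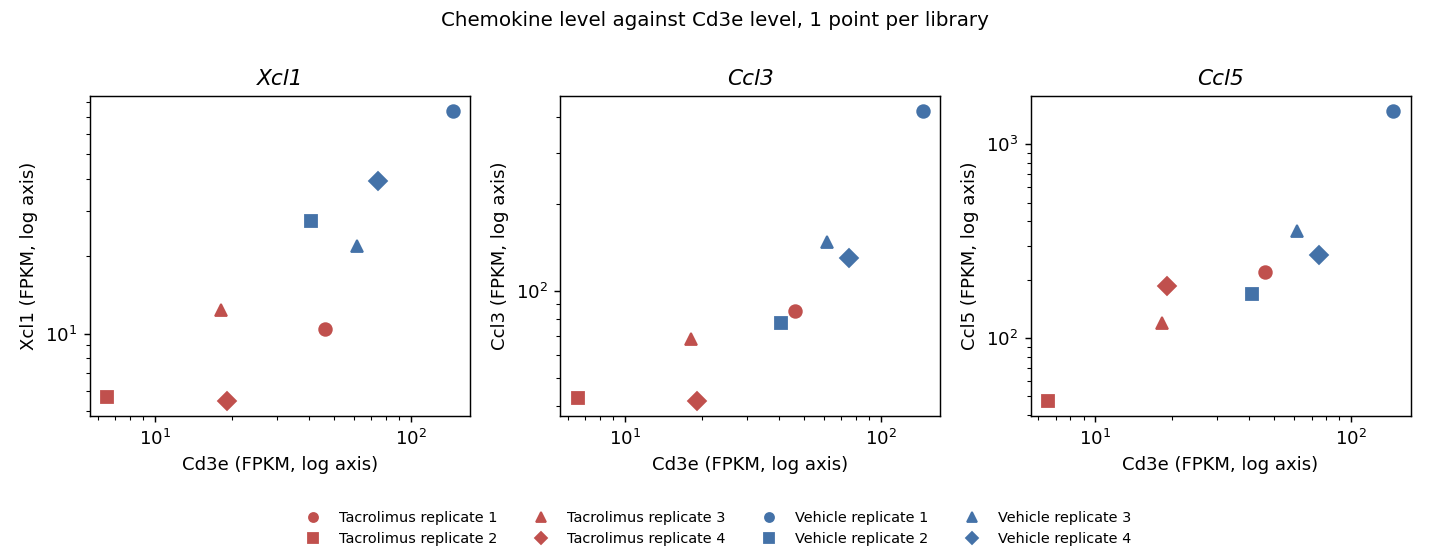
Xcl1, Ccl3 and Ccl5 (vertical, FPKM, log axis) against Cd3e (horizontal, FPKM, log axis) in each of the 4 tacrolimus (red) and 4 vehicle (blue) libraries. Tacrolimus replicate 1 and vehicle replicate 2 have nearly the same Cd3e level and nearly the same Ccl3 level, at 84.94 and 77.28 FPKM. In this 1 pair, Xcl1 is at 10.43 and 27.58 FPKM, and Ccl5 at 219.02 and 168.33 FPKM. No other tacrolimus library reaches the vehicle range of Cd3e.

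Per FPKM of Cd3e, none of the 5 ligands was lower in the tacrolimus group beyond the spread between mice. Xcl1 was at 0.227, 0.867, 0.68 and 0.285 FPKM per FPKM of Cd3e in tacrolimus replicates 1 to 4, and at 0.507, 0.675, 0.356 and 0.526 in vehicle replicates 1 to 4. Tacrolimus replicates 2 and 3 were above every vehicle library, replicate 3 by a small margin, and replicates 1 and 4 were below every one. The means were 0.514 ± 0.309 with tacrolimus and 0.516 ± 0.131 with vehicle (SD, n = 4 each). Ccl1 per FPKM of Cd3e was at 0.068, 0, 0.513 and 0.0094 in tacrolimus libraries and at 0.129, 0.186, 0.090 and 0.262 in vehicle libraries. Tacrolimus replicate 3 was thus the highest of the 8 libraries and the other 3 the lowest.

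Ccl3, Ccl4 and Ccl5 per FPKM of Cd3e had higher means with tacrolimus, with overlap. Ccl3 was at 1.84, 6.55, 3.76 and 2.17 in tacrolimus libraries and at 2.87, 1.89, 2.39 and 1.74 in vehicle libraries. Ccl4 was at 2.74, 7.15, 7.45 and 5.25 in tacrolimus libraries and at 5.56, 3.47, 3.09 and 2.11 in vehicle libraries. The high values were those of tacrolimus replicate 2 for Ccl3 and of replicates 2 and 3 for Ccl4. Ccl5 was at 4.76, 7.23, 6.62 and 9.75 in tacrolimus libraries and at 10.2, 4.12, 5.77 and 3.61 in vehicle libraries, and vehicle replicate 1 was the highest of all. Xcr1 was at 0.0152 to 0.0521 in tacrolimus libraries and at 0.0103 to 0.0235 in vehicle libraries. In 3 of the 4 tacrolimus libraries it was above every vehicle library. With no filter on low values, its log2 difference relative to Cd3e was 1.59 (SE 0.76, limma adjusted p = 0.044), in a fit in which 24277 of 28613 genes passed the adjustment. Tacrolimus replicate 2, with the lowest Cd3e level of 6.53 FPKM, had the highest ratio for Xcl1, Ccl3 and Xcr1.

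**Figure D3:**
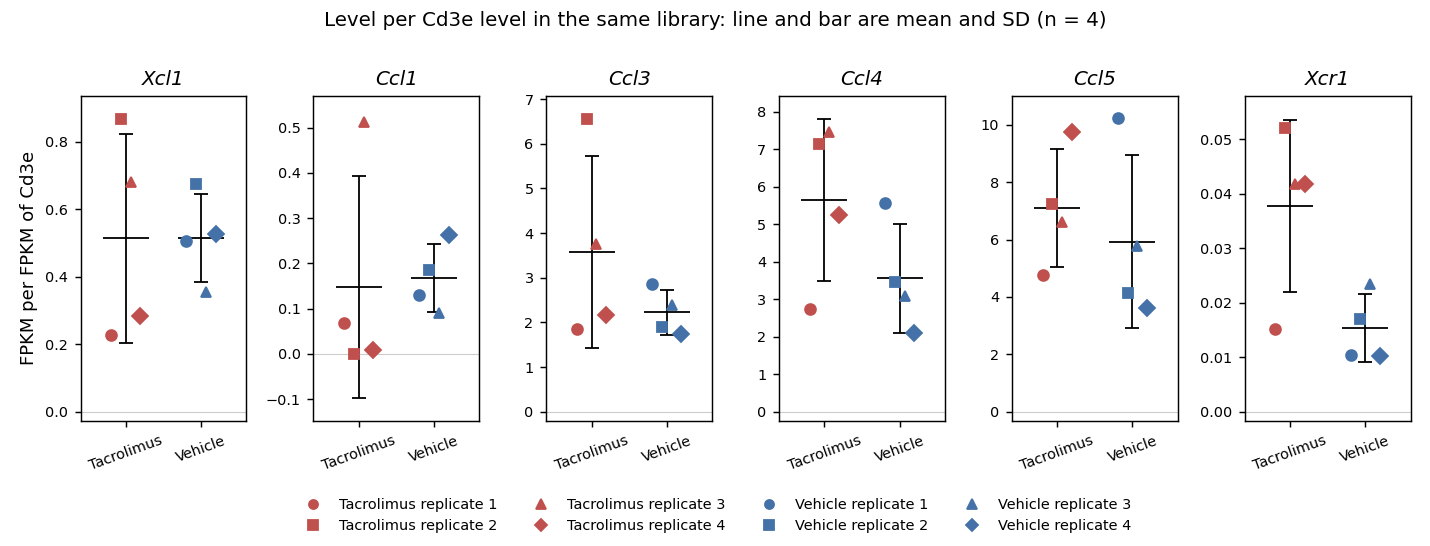
Level of each gene divided by the Cd3e level of the same library (FPKM per FPKM of Cd3e), each panel with its own axis; points are libraries, red for tacrolimus and blue for vehicle, and the line and bar are the mean and SD of 4 libraries. The groups overlap in all 6 panels, and the tacrolimus points of Xcl1 lie at 0.227 and 0.285 and at 0.68 and 0.867.

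On the log2 scale, the difference relative to Cd3e was -0.13 for Xcl1 (SE 0.78, limma adjusted p = 0.875) and -0.27 for Ccl1 (SE 0.76, limma adjusted p = 0.725). It was 0.47 for Ccl3 (SE 0.80, limma adjusted p = 0.561), 0.59 for Ccl4 (SE 0.80, limma adjusted p = 0.471) and 0.27 for Ccl5 (SE 0.80, limma adjusted p = 0.740). The same 5 differences had an exact two-sided permutation p of 0.857, 0.743, 0.343, 0.229 and 0.486 over the 70 assignments of libraries, for which the smallest possible p is 0.0286. With the spread of each gene alone, the 95% interval was -1.30 to 1.05 for Xcl1, -2.13 to 1.59 for Ccl1 and -0.55 to 1.49 for Ccl3. It was -0.45 to 1.62 for Ccl4 and -0.69 to 1.23 for Ccl5. Each interval spans 0 and holds differences of either sign, so these data do not show that the ligands per Cd3e were alike in the groups.

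**Figure D4:**
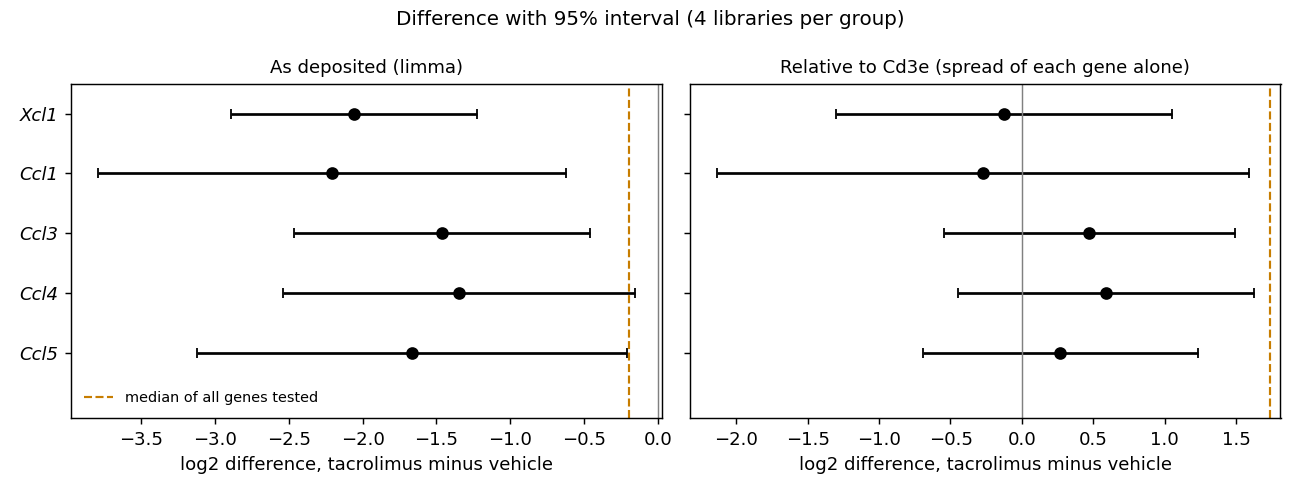
Log2 difference, tacrolimus minus vehicle, of the 5 tested ligands with its 95% interval, in the values as deposited (left, limma) and relative to Cd3e (right, from the spread of each gene alone). The dashed line is the median of all genes tested, at -0.19 on the left and 1.74 on the right. All 5 points lie below 0 on the left, and they lie on both sides of 0 on the right.

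The ligands lay at the low end of all genes on this measure too, as the same amount is subtracted from every gene of a library. The median gene lay at 1.74, and 26 of 13031 genes (0.2%) had a difference below 0, Xcl1 and Ccl1 among them. At an unadjusted p under 0.05, 0 of the 5 ligands were higher, beside 79.1% of all genes. Past the adjustment, 740 genes (5.68%) were higher and none of the 5 ligands. Since all genes carry the Cd3e value of their library, their residuals are not independent. With the spread of each gene alone, 0 genes passed the adjustment. The melanoma markers, for example, had a median of 1.77 relative to Cd3e and of -0.17 as deposited.

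A second way to set the members against Cd3e, as a covariate in the fit, estimates the slope in place of fixing it. Cd3e itself had a lower mean with tacrolimus, and only tacrolimus replicate 1 reached the vehicle range of Cd3e. The groups thus share little of that range, and these differences rest on extending the fitted slope beyond it. Under that limit, Xcl1 was at -1.14 (SE 0.46, 95% interval -2.17 to -0.10), which did not pass the adjustment (limma adjusted p = 0.276, unadjusted p = 0.034). It was the only 1 of the 5 ligands with an unadjusted p under 0.05, beside 15.4% of all genes that were lower and 1.98% that were higher at that level. Ccl1 was at -0.72 (SE 0.96, limma adjusted p = 0.685) and Ccl3 at -0.17 (SE 0.47, limma adjusted p = 0.860). Ccl4 was at 0.25 (SE 0.53, limma adjusted p = 0.807) and Ccl5 at 0.51 (SE 0.51, limma adjusted p = 0.575). The fitted slope on log2 Cd3e was 0.48 for Xcl1, 0.77 for Ccl1, 0.67 for Ccl3, 0.83 for Ccl4 and 1.13 for Ccl5, where the ratio assumes a slope of 1. Whether Xcl1 differed from the CC chemokines in this respect was not tested.

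Markers of other cell types were found at levels from abundant to near 0. Natural killer markers summed to between 16.4 and 19.6 FPKM in tacrolimus libraries and to between 10.1 and 41.7 FPKM in vehicle libraries. Their defining gene Ncr1 was at 0 in 2 libraries of each group and at most at 0.59 FPKM. Much of the sum was a single gene, Klrb1c, at 11.15 to 16.66 FPKM with tacrolimus and 6.61 to 19.46 FPKM with vehicle. Macrophage markers, given above, had a lower mean in 11 of 12 genes with a median difference of -1.08, and Lyz2, which encodes lysozyme, was at 167 ± 52.7 FPKM with tacrolimus and 444 ± 315 FPKM with vehicle. Neutrophil markers summed to between 13.9 and 46.1 FPKM in tacrolimus libraries and to between 32.1 and 351 FPKM in vehicle libraries. Their highest library was vehicle replicate 1, which was also the highest for Xcl1, Xcr1, Ccl3, Ccl4, Ccl5, Cd3e and the T cell, natural killer and macrophage marker sums. Mast cell and basophil markers other than Kit, a receptor that melanocytes also express, were at or near 0, with Fcer1a and Ms4a2 at 0 in every library. B cell markers summed to at most 3.31 FPKM with tacrolimus and 5.84 FPKM with vehicle. The part of these cells in the chemokine levels was not tested.

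The genes with the most similar profile over the 8 libraries were found by the root mean square difference of log2(FPKM + 1) values centred on each gene's own mean, among 11431 genes. For Xcl1 the closest was Ccr8, at a difference of 0.32 where the spread of Xcl1 itself was 1.17, followed by Fam189b (0.37) and Gpr65 (0.38). For Ccl4 the closest were Srgn (0.14), Samsn1 (0.15) and Hcst (0.17). For Ccl3 they were Jaml (0.22), Dok2 (0.23) and Apol7e (0.24), and for Ccl5 H2-Q6, Ly6c2 and Gimap5 (0.21, 0.22 and 0.23). The closest gene to Ccl1 was Xcl1, at 0.71, beside a spread of Ccl1 of 1.56. Between the members, Ccl3 and Ccl4 were closest (0.37) and Ccl5 and Ccl1 farthest apart (1.22). Cd3e was nearer to Ccl5 (0.50) than to Xcl1 (0.59), and farthest from Ccl1 (0.94). All these profiles share the same 8 libraries and their depth and cell content.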

How the data were processed

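RNA sequencing of 8 libraries, 4 tacrolimus and 4 vehicle, 1 per mouse, was analysed, with groups and replicate numbers from the sample titles. The submitters' processing notes name HISAT2 2.1.0, RSEM 1.3.1, DESeq2 1.24.0 and GRCm38.p6, with no role or order. Each deposited file lists 55487 genes with a single value, and no header names the unit. The values behave as FPKM, scaled by the authors for gene length and library size. Library sums ran from 890182 to 926808. Rescaling each library to 1000000, as for TPM, changed no call of the members. Low values of genes with a single transcript of 500 to 1500 bases were whole multiples of the library's step, to a tolerance of 0.15 steps, in 85.3% to 87.2% of cases, against 30.0% for evenly spread values, and the step gave the fragment estimates. Low TPM values would also fall on such steps, so the steps do not tell TPM from FPKM. The fragment estimates hold only if the unit is FPKM. No count model was used on FPKM.

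On the log2(FPKM + 1) scale, genes that reached 1 FPKM in 4 or more of the libraries were compared with limma 3.58.1 in R 4.3.3 (eBayes with a mean-variance trend on the gene's level, treatment as the only term, Benjamini-Hochberg adjustment over all genes tested, threshold 0.05). The same fit was run on each gene minus Cd3e. On simulated data with every gene drawn independently, the fit as deposited was tested for the recovery of planted differences and for false calls. The fit relative to Cd3e was tested there only for the mean error of its differences, not for its calls. The covariate and replicate block fits were not tested in this way. The 6 members, the marker lists and the alternatives were chosen with earlier results of these data known. All members are named. Of each other list, the genes with the 2 smallest unadjusted p in a direction and those needed to show a cell type could be named, and for each tested member the 3 genes with the nearest profile; not all are printed. Symbols and coordinates are from GENCODE M21 and promoters from RefSeq (GRCm38.p6), which matched 4 of 6 members. The counting of strand is not given in the sources used here, so reads of Xcl1 and of Gm20743, which overlaps it on the other strand at 0 to 0.51 FPKM, cannot be told apart. The main fits did not pair libraries by replicate number, and whether the numbers pair them was not settled. Alternatives were other pseudocounts, filters, scalings, T cell genes in place of Cd3e, Cd3e as a covariate, robust variances, the replicate block, and each library left out. Plots used Python 3.11.15 and matplotlib 3.10.9. A receptor gene of the lists is not reported here.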

Additional observations from a re-analysis of the deposited data

Results flagged for a closer look

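The Ccl4 level of vehicle replicate 1, at 810.73 FPKM, lay far above those of the other vehicle libraries, at 141.58, 157.74 and 190.64 FPKM. On the log2(FPKM + 1) scale, the gap to the nearest library was 0.83 of the range of the group, where 0.829 is the critical value for 4 samples. Chance gives such a gap in about 1 of 20 groups, and 26 combinations of gene, measure and group were examined. The same library had the highest sums of the T cell, macrophage and neutrophil markers, and its part in the Ccl4 level was not tested.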

How the results depend on the processing

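In the values as deposited, the count of genes past limma's adjusted threshold was 0 under each setting but 2: 121 genes passed with the replicate block and 1 without vehicle replicate 1, and the range over libraries left out was 0 to 1. Of 90 repeats of the 5 ligand differences over 18 settings, 87 kept their sign and their side of the threshold. The exceptions were Xcl1, which passed with the replicate block (-2.06, limma adjusted p = 0.0481; 0.0481 to 0.386 over its alternatives), and Ccl4 and Ccl5, which turned to 0.25 and 0.51 with Cd3e as a covariate. With 1 library left out, the differences ran from -2.30 to -1.73 for Xcl1, -2.86 to -1.74 for Ccl1, -1.80 to -1.0 for Ccl3, -1.61 to -0.77 for Ccl4 and -2.07 to -1.03 for Ccl5. Whether the replicate numbers pair the libraries was not settled. Same-numbered libraries deviated together in 2 of 4 pairs (correlations of -0.02 to 0.28 across genes), and 4 of 8 libraries correlated best with their own number. The same-numbered pairs of replicates 2 (0.28) and 1 (0.21) had the highest correlations of all pairs between the groups. Relative to Cd3e, the count of 740 genes was 24277 with no filter, 12627 with the replicate block, 5731 with robust variances, 55 with Cd8a, 10689 with Trac and 129 with the T cell marker list in place of Cd3e. It was 47 to 12202 over libraries left out, and 0 with the spread of each gene alone, a setting chosen after seeing the data, as was the rescaling to 1000000. Of 90 repeats of the ligand differences relative to Cd3e, 85 kept their sign and none passed. Over libraries left out, Xcl1 ran from -0.43 to 0.19 and Ccl1 from -0.93 to 0.14. Xcl1 turned to 0.093 with Trac, to 0.19 without tacrolimus replicate 1, to 0.06 without tacrolimus replicate 4 and to 0.01 without vehicle replicate 2. Ccl1 turned to 0.14 without tacrolimus replicate 4. The causes were not tested. Ccl1 has few fragments in some libraries. It is listed at 0 in 1 tacrolimus library and stands on an estimated 0.7 to 5.3 fragments in another. Xcr1 did not pass the filter on FPKM. Its estimated fragments in tacrolimus libraries, 23.1 to 61.5, were close to the 22.7 to 67.1 of Xcl1, which was tested. With no filter Xcr1 was at -0.34 as deposited (limma adjusted p = 0.605) and at 1.59 relative to Cd3e (limma adjusted p = 0.044).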
